A study of Homo sapiens with 24 samples.

Results

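DLL3 and 9 further genes of the Notch pathway were followed by name through total RNA sequencing of 4 human small-cell lung cancer cell lines: the ligands DLL3, DLL1, JAG1 and JAG2, the receptors NOTCH1 and NOTCH2, the glycosyltransferase LFNG, the DNA-binding factor RBPJ, and the HES family genes HES1 and HES6. Of these 10 genes, 9 are listed in at least 1 of the 5 deposited tables, which together list 16796 genes. DLL1 is listed in no table. H187, H209, H82 and SHP-77 cells received lurbinectedin at 0.1 nM, or the DMSO vehicle, over 24 h in 3 biological replicates, giving 24 libraries in 8 groups. The design names H187 and H209 as high in the transcription factor ISL1, and H82 and SHP-77 as low. No group carries a genetic change made for the study, and each line is an established culture. All levels and folds below come from RNA pooled over a culture, so fewer cells with a transcript and less transcript per cell cannot be told apart.

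Notch signalling passes between touching cells. A ligand of the Delta or Jagged family on one cell binds a Notch receptor on its neighbour, the receptor is cut by ADAM10 and then by gamma-secretase, and the freed intracellular domain joins RBPJ and a Mastermind coactivator on DNA and switches on HES and HEY repressors. DLL3 is the exception among the Delta ligands: it stays mostly inside the cell, does not activate receptors from outside, and dampens Notch signalling in the cell that makes it. In neuroendocrine lung tumours, DLL3 protein on the tumour cell surface is used as a drug target. Lurbinectedin binds guanine-rich DNA and blocks RNA polymerase II during transcription.

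Total counts per library ran from 24226553 to 36415190. ISL1, which defines the study's classes, averaged 249.5 and 204 CPM (counts scaled to a common library size) in H187 and H209 under DMSO, against 3.89 and 0.912 in H82 and SHP-77. Under lurbinectedin ISL1 fell in H187 (log2 fold change -0.19 ± 0.04, edgeR adjusted p = 0.00104) and in H209 (-0.31 ± 0.03, adjusted p = 9.17e-11). It did not pass in H82 (0.05 ± 0.15), and the authors' deposited table lists it at -0.41 in SHP-77 (FDR 0.46). Of 9 neuroendocrine markers, 7 or 8 had values per group, with CHGA listed in no table, and their summed level was 1258 to 3314 CPM in the DMSO libraries. In H187 the sum went from 3150 to 3264 CPM under DMSO to 2896 to 2972 CPM under lurbinectedin. In each other line the sums under DMSO and lurbinectedin overlapped. Of 8 non-neuroendocrine markers, 1 to 4 had values per group. They summed to at most 3.06 CPM in the DMSO libraries of H187, H209 and SHP-77, and to 35.9 to 38.3 CPM in H82, where the sum was 42.2 to 45.6 CPM under lurbinectedin and VIM rose (0.50 ± 0.13, adjusted p = 0.037). The fibroblast marker DCN and the leukocyte markers PTPRC and CD3E are listed in no table. Of 4 fibroblast markers, 1 to 3 had values per group. They summed to 7.06 to 8.40 CPM in H187 under DMSO and to 7.74 to 9.18 CPM under lurbinectedin. In the DMSO libraries of the other lines they summed to at most 2.95 CPM. Under lurbinectedin the sum reached 7.75 CPM in SHP-77, where more of these markers had values than under DMSO. The third leukocyte marker, CD68, went from 1.11 to 1.36 CPM in the DMSO libraries of H209 to 1.82 to 2.48 CPM under lurbinectedin. Whether these markers bear on the changes in any line was not tested.

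DLL3 (hg38 chromosome 19, 39498917 to 39508481, plus strand) was present in every library of every line. Under DMSO its level was 235, 245 and 274 CPM in the 3 SHP-77 libraries and 190, 198 and 202 CPM in those of H187. It was 116, 122 and 138 CPM in H209, and 102, 107 and 120 CPM in H82. SHP-77 was thus the highest line, and the libraries of H209 and H82 overlapped. SHP-77 exceeded H187 by 0.35 ± 0.06 on the log2 scale (SE, adjusted p = 2.03e-06), and H187 exceeded H209 by 0.65 ± 0.06 (adjusted p = 2.67e-11). H209 exceeded H82 by 0.19 ± 0.06 (adjusted p = 0.00346), a call lost without H209 DMSO replicate 3 (0.12, adjusted p = 0.0603) and with DESeq2 (0.17, adjusted p = 0.0613). Of the 11408 genes listed for all 4 lines, 86% differed between H187 and H209, 88.2% between H187 and SHP-77, 87.2% between H209 and SHP-77 and 88.8% in each of the other pairs, so a gene that differs between lines is the rule here. The order of DLL3 did not follow the ISL1 classes: the mean of the high lines minus that of the low lines was -0.08 ± 0.04 under DMSO (adjusted p = 0.0753, with 89.1% of genes past the threshold). This class difference passed without H209 DMSO replicate 3 (-0.11, adjusted p = 0.00921). It also passed without H82 DMSO replicate 2 (-0.10, adjusted p = 0.0199) or SHP-77 DMSO replicate 3 (-0.10, adjusted p = 0.0261).

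**Figure D1:**
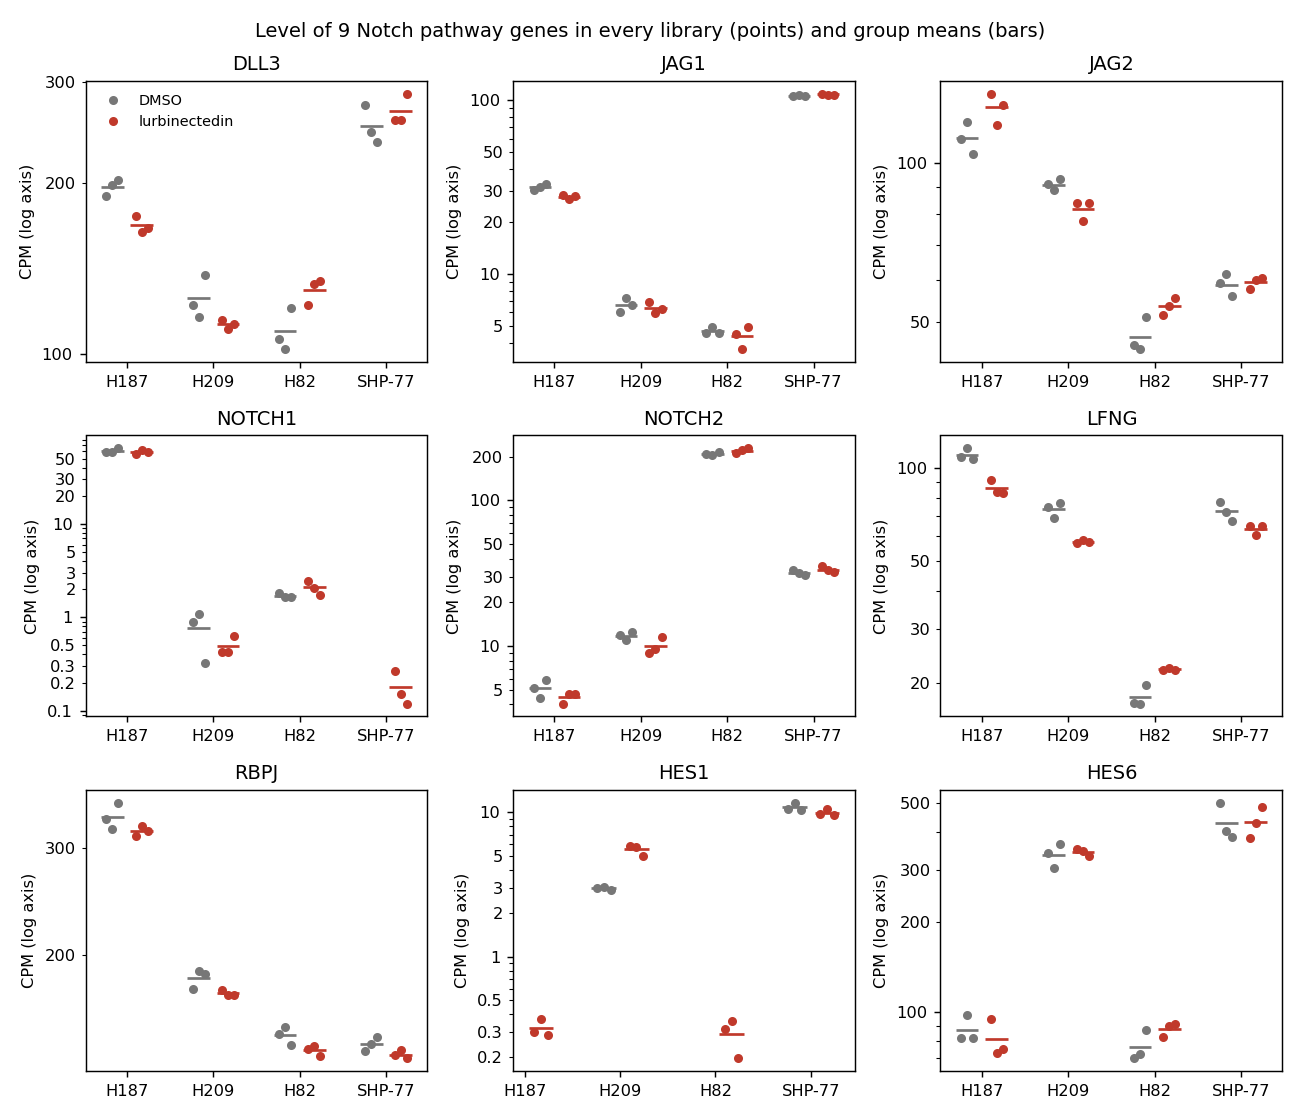
Level of the 9 listed genes in each library, in CPM on a log axis, for 4 lines under DMSO (grey) and lurbinectedin (red); points are libraries and bars are the means of 3. NOTCH1 in SHP-77 and HES1 in H187 and H82 are shown under lurbinectedin only, and DLL3 ranges from 102 CPM in H82 to 286 CPM in SHP-77.

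JAG1 (chromosome 20, 10637684 to 10674046, minus strand), a Jagged ligand that activates receptors on neighbouring cells, spread far more widely between lines than DLL3. Its DMSO libraries held 105, 106 and 107 CPM in SHP-77, 30.3, 31.5 and 32.9 CPM in H187, 6.00, 6.59 and 7.22 CPM in H209, and 4.53, 4.57 and 4.91 CPM in H82. No 2 lines overlapped, and each step in that order passed, with H209 over H82 the smallest at 0.51 ± 0.09 (adjusted p = 5.74e-06). This is the order of lines that DLL3 showed. Over the 24 libraries, Pearson's r of log2 CPM between JAG1 and DLL3 was 0.965, which placed JAG1 at rank 9 of 11087 genes compared. Among the genes closest to DLL3 were SPRY1 (r = 0.972), an inhibitor of receptor tyrosine kinase signalling, SPTBN1 (0.970), a spectrin, HMGB3 (0.970), a chromatin protein, and CPE (0.969), a carboxypeptidase that processes prohormones. These coefficients describe an order of 4 lines, since the libraries of a line share its genome and culture.

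JAG2 (chromosome 14, 105140981 to 105168824, minus strand), the second Jagged ligand, followed the ISL1 classes. Its DMSO libraries held 104, 111 and 120 CPM in H187 and 88.9, 91.2 and 93.3 CPM in H209. Those of SHP-77 held 55.9, 59.1 and 61.5 CPM, and those of H82 44.3, 45.1 and 51.1 CPM. Each high line lay above each low line with no overlap. The class difference was 0.95 ± 0.04 (adjusted p = 3.18e-19), in a test that takes the lines as fixed and that 89.1% of genes passed. With 1 value per line and limma, the class difference was 0.95 ± 0.51 and did not pass (adjusted p = 0.718). All 3 steps in the order passed, the smallest being H187 over H209 at 0.30 ± 0.05 (adjusted p = 9.81e-06). Exons of JAG2 overlap AL512356.1 on the same strand, and those of JAG1 overlap the antisense gene AL050403.2. Whether counting used strand is not given in the sources used here, so reads in these stretches cannot be told apart.

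The receptors set the lines apart most. NOTCH1 (chromosome 9, 136494433 to 136545786, minus strand) held 58.9, 59.5 and 64.6 CPM in the DMSO libraries of H187, against 1.64, 1.65 and 1.82 CPM in H82 and 0.322, 0.900 and 1.08 CPM in H209. It is not listed in the SHP-77 table. Under lurbinectedin, where the class table gives counts for all lines, SHP-77 held 0.119, 0.150 and 0.268 CPM, from 4, 4 and 8 counts, and H187 held 56.4, 59.1 and 62.2 CPM. H187 was therefore the only line of the 4 in which NOTCH1 exceeded 2.45 CPM in any library given.

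NOTCH2 (chromosome 1, 119911553 to 120069703, minus strand) gave another order, with H82 the highest line and H187 the lowest. Its DMSO libraries held 205 to 215 CPM in H82, 30.7, 32.0 and 33.3 CPM in SHP-77, 11.0, 12.0 and 12.6 CPM in H209, and 4.43, 5.22 and 5.92 CPM in H187. No 2 lines overlapped. The steps were 2.71 ± 0.05, 1.44 ± 0.06 and 1.18 ± 0.09 on the log2 scale. The class difference was -3.38 ± 0.05 (adjusted p = 1.97e-30), lower in the ISL1-high lines. With 1 value per line and limma, the class difference was -3.38 ± 1.01 and did not pass (adjusted p = 0.626). NOTCH2NL, a near-identical copy of part of NOTCH2, is listed in the tables too, so the split of reads between both genes is uncertain.

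LFNG, which adds sugar to the receptors and thereby shifts which ligands they answer to, lies on chromosome 7, 2512529 to 2529176, plus strand. Its DMSO libraries held 107, 108 and 116 CPM in H187, 69.0, 74.8 and 77.1 CPM in H209, 67.4, 72.1 and 77.6 CPM in SHP-77, and 17.2, 17.3 and 19.7 CPM in H82. H209 and SHP-77 overlapped and did not differ by the test (0.03 ± 0.06, adjusted p = 0.669), while H82 lay 2.00 ± 0.06 below SHP-77. RBPJ (chromosome 4, 26319710 to 26435130, plus strand) is the factor through which all Notch receptors reach DNA. It held 322, 336 and 357 CPM in H187, 176, 186 and 188 CPM in H209, 143, 148 and 153 CPM in H82, and 139, 143 and 147 CPM in SHP-77. H82 and SHP-77 overlapped and did not pass (0.05 ± 0.04, adjusted p = 0.254).

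HES1 and HES6 are both bHLH proteins of the HES family but are known for opposite roles. HES1 is the classical repressor switched on by Notch, which holds down proneural genes. HES6 is induced by proneural factors and opposes HES1. The stretches of DNA just upstream of both genes are shown because HES1 changed most of the listed members under lurbinectedin and HES6 did not pass in any line. The RefSeq promoter windows (GRCh38.p14) matched 8 of the 10 genes. The 250 bases before the RefSeq start were searched on both strands for TGGGAA, the core bound by RBPJ, and CAGCTG, an E-box bound by proneural factors. The part that lies before the gene's start in the deposited tables is printed, 5′ to 3′ on the gene's strand, with TGGGAA in capitals for HES1 (chr3:194135898-194136141, plus strand) and CAGCTG in capitals for HES6 (chr2:238240125-238240288, minus strand).
HES1: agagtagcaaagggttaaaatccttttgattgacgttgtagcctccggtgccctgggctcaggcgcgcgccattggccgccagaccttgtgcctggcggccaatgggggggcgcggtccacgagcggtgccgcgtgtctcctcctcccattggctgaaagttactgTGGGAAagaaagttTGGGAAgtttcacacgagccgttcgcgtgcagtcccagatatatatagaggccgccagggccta
HES6: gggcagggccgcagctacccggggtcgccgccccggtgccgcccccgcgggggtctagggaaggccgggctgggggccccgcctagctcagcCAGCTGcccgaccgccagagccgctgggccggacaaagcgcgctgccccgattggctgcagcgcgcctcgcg
HES1 held TGGGAA 2 times, beginning 84 and 70 bases before the RefSeq start, and held no CAGCTG. HES6 held CAGCTG 1 time, beginning 158 bases before its RefSeq start, and held no TGGGAA. Among 35116 windows of the same length, 20.8% held TGGGAA and 14% held CAGCTG, so a match of these letters is common and describes the sequence only.

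HES1 (chromosome 3, 194136142 to 194138612, plus strand) was a low transcript. Its DMSO libraries held 10.5, 10.5 and 11.7 CPM in SHP-77 and 2.90, 3.00 and 3.05 CPM in H209. It is not listed in the tables of H187 and H82. Under lurbinectedin the class table gives 0.284 to 0.370 CPM in H187 and 0.198, 0.315 and 0.358 CPM in H82, from 6 to 12 counts per library. H187, the line with the most NOTCH1 RNA, and H82, the line with the most NOTCH2 RNA, were thus the lines with the least HES1 RNA under lurbinectedin. HES6 (chromosome 2, 238238267 to 238240124, minus strand) held 386, 405 and 503 CPM in SHP-77, 303, 341 and 365 CPM in H209, 81.7, 82.1 and 97.6 CPM in H187, and 70.2, 72.7 and 87.1 CPM in H82. The lines formed a high pair and a low pair, and the pairs did not follow the ISL1 classes (class difference -0.08 ± 0.06, adjusted p = 0.166). The class difference passed without H187 DMSO replicate 2 (-0.13, adjusted p = 0.0466) or SHP-77 DMSO replicate 3 (-0.12, adjusted p = 0.046). H187 over H82 passed at 0.19 ± 0.09 (adjusted p = 0.0387) with overlapping libraries, a call lost with DESeq2 (adjusted p = 0.195) and without H187 DMSO replicate 2 (0.10), H82 DMSO replicate 1 (0.12) or H82 DMSO replicate 2 (0.15).

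Levels of different genes were compared as CPM per kilobase of exon (CPM per kb), under lurbinectedin, where all 9 genes have counts in all 4 lines. Among the 3 listed member ligands (DLL3, JAG1 and JAG2), DLL3 was the most abundant in each line. It held 112 CPM per kb in SHP-77, 70.7 in H187, 54.5 in H82 and 47.4 in H209. Ligands outside the members, such as DNER, which had more CPM than DLL3 in H209, were left out of this comparison. JAG2 followed in H187, H209 and H82 at 21.9, 14.0 and 9.17 CPM per kb, whereas in SHP-77 JAG1 came second at 18.0 CPM per kb, ahead of JAG2 at 10.2. NOTCH1 exceeded NOTCH2 in H187, at 6.37 against 0.380 CPM per kb. NOTCH2 exceeded NOTCH1 in H209 (0.852 against 0.0534 CPM per kb), in H82 (18.6 against 0.225) and in SHP-77 (2.84 against 0.0192). H209 had under 1 CPM per kb of either receptor. HES6 exceeded HES1 in each line, by 55.8 against 0.218 CPM per kb in H187 and 298 against 6.81 in SHP-77.

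**Figure D2:**
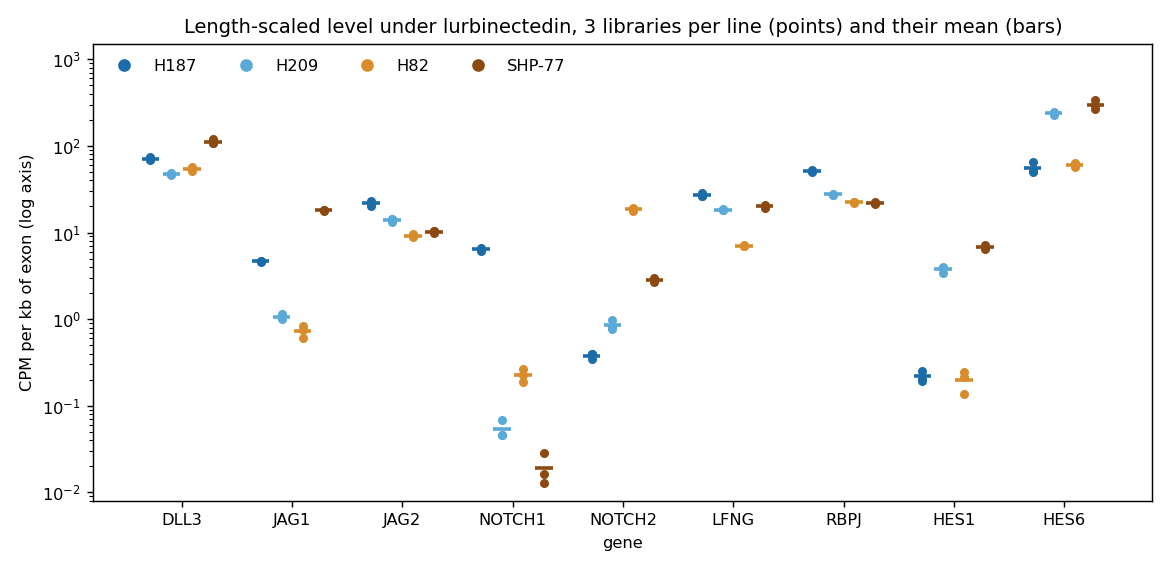
Level of the 9 genes per kb of exon under lurbinectedin, on a log axis, with 1 colour per line; points are libraries and bars are the means of 3. DLL3 lies above JAG1 and JAG2 in all 4 lines, while NOTCH1 is highest in H187 (6.37 CPM per kb) and NOTCH2 in H82 (18.6 CPM per kb).

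DLL3 fell under lurbinectedin in both ISL1-high lines and rose in H82. In H187 its libraries went from 190, 198 and 202 CPM under DMSO to 164, 167 and 175 CPM, and in H209 from 116, 122 and 138 CPM to 111, 113 and 115 CPM. The groups did not overlap in either line, though in H209 they came within a few CPM of each other. The log2 fold change was -0.22 ± 0.04 in H187 (adjusted p = 0.000485) and -0.14 ± 0.04 in H209 (adjusted p = 0.00211). The H209 call was lost without DMSO replicate 3, the highest of the 6 libraries (-0.07, adjusted p = 0.10), and with DESeq2 (-0.15, adjusted p = 0.102). In H82, DLL3 went from 102, 107 and 120 CPM to 122, 133 and 134 CPM, with no overlap and a log2 fold change of 0.25 ± 0.05 (adjusted p = 0.0116), a call lost after a correction for GC content (0.13, adjusted p = 0.158) and without any of 4 single libraries, named with the other H82 calls. In SHP-77 it went from 235, 245 and 274 CPM to 257, 258 and 286 CPM, with overlapping groups, and did not pass (0.09 ± 0.04, adjusted p = 0.291); without DMSO replicate 1, its highest DMSO library, it passed at 0.15 (adjusted p = 0.0236).

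LFNG was the only member to pass in all 4 lines, though not in the same direction in each. Its libraries fell from 107, 108 and 116 CPM to 83.2, 83.9 and 91.2 CPM in H187 and from 69.0, 74.8 and 77.1 CPM to 57.1, 57.4 and 58.3 CPM in H209. The log2 fold change was -0.35 ± 0.05 in H187 (adjusted p = 1.65e-05) and -0.35 ± 0.04 in H209 (adjusted p = 4.61e-10), and both calls held in all 14 alternatives run. In SHP-77 it went from 67.4, 72.1 and 77.6 CPM to 60.8, 64.6 and 64.9 CPM (-0.19 ± 0.05, adjusted p = 0.0167), a call lost without DMSO replicate 1 (-0.13), DMSO replicate 2 (-0.19, adjusted p = 0.0783) or lurbinectedin replicate 2 (-0.16). In H82 it went the other way, from 17.2, 17.3 and 19.7 CPM to 22.1, 22.1 and 22.4 CPM (0.31 ± 0.06, adjusted p = 0.0116), a call likewise lost after the GC correction (0.21, adjusted p = 0.0826) and without any of 4 single libraries. In each line the LFNG groups did not overlap. Lack of overlap also occurred without a call, for RBPJ in H82 (lower, adjusted p = 0.354) and JAG1 in SHP-77 (higher, adjusted p = 0.694). How many of all genes passed in every line, or had groups that did not overlap, was not counted.

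Of the Jagged ligands, JAG2 passed in H187, H209 and H82, and JAG1 in H187 only. JAG2 rose in H187 (0.20 ± 0.05, adjusted p = 0.0115), from 104, 111 and 120 CPM to 118, 129 and 136 CPM with overlapping groups, and this call was lost after the GC correction (0.11, adjusted p = 0.0683) and without lurbinectedin replicate 1 (0.15, adjusted p = 0.08). In H209 it fell from 88.9, 91.2 and 93.3 CPM to 77.9, 83.9 and 84.0 CPM (-0.14 ± 0.04, adjusted p = 0.000803). In H82 it rose from 44.3, 45.1 and 51.1 CPM to 51.5, 53.6 and 55.5 CPM (0.20 ± 0.05, adjusted p = 0.0418). The H209 and H82 groups did not overlap, and H82 by a narrow margin. JAG1 fell in H187, from 30.3, 31.5 and 32.9 CPM to 27.1, 27.9 and 28.3 CPM (-0.18 ± 0.05, adjusted p = 0.0164), a call lost without lurbinectedin replicate 2 (adjusted p = 0.0697) or 3 (adjusted p = 0.0579). It did not pass in H209, H82 or SHP-77, where the 95% interval of its log2 fold change was -0.26 to 0.16, -0.35 to 0.18 and -0.03 to 0.09.

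Of the receptors, NOTCH2 fell in H209, from 11.0, 12.0 and 12.6 CPM to 9.08, 9.57 and 11.6 CPM with overlapping groups (-0.22 ± 0.09, adjusted p = 0.0316). That call was lost with DESeq2 (adjusted p = 0.0846) and without DMSO replicate 1 or 3 or lurbinectedin replicate 1 or 2, with values from -0.21 to -0.15. In H187, H82 and SHP-77 it did not pass (-0.20 ± 0.13, 0.08 ± 0.04 and 0.07 ± 0.05). NOTCH1 did not pass in H187 (-0.04 ± 0.05), H209 (-0.63 ± 0.34, 95% interval -1.32 to 0.07) or H82 (0.30 ± 0.18). In H209, where its libraries held 9 to 35 counts, it passed without DMSO replicate 3, the lowest DMSO library (-0.99, adjusted p = 0.0138). RBPJ was lower in H209 only at the edge of the threshold (-0.08 ± 0.03, adjusted p = 0.0499), from 176, 186 and 188 CPM to 172, 172 and 175 CPM, and 9 of its alternatives lost the call, the authors' deposited table (FDR 0.10) among them. Its log2 fold changes of -0.07 in H187, -0.07 in H82 and -0.06 in SHP-77 did not pass. NOTCH2 and RBPJ span 158.2 and 115.4 kb, and genes spanning 100 to 300 kb had a median log2 fold change of -0.10 in H209 and -0.08 in H187; whether span bears on these values was not tested.

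HES1 gave the largest change of any member that passed. In H209 its libraries rose from 2.90, 3.00 and 3.05 CPM to 5.00, 5.71 and 5.89 CPM, a log2 fold change of 0.89 ± 0.13 (adjusted p = 1.23e-07) with no overlap. The value stayed between 0.84 and 0.97 in 13 alternatives, all past the threshold. In SHP-77, HES1 went from 10.5, 10.5 and 11.7 CPM to 9.52, 9.79 and 10.6 CPM, with overlapping groups, and did not pass (-0.13 ± 0.08, 95% interval -0.29 to 0.03). The difference between these 2 lines, fitted on both lines alone, was 1.03 ± 0.15 (adjusted p = 1.38e-06, where 28.4% of genes passed). HES1 has no DMSO value in H187 and H82, so no effect is given there. HES6 did not pass in any line as fitted (0.21 ± 0.06 in H82, -0.10 ± 0.08 in H187, 0.04 ± 0.04 in H209 and 0.01 ± 0.07 in SHP-77). In H82 it passed in the authors' deposited table (FDR 0.0396) and without DMSO replicate 3 (0.31, adjusted p = 0.000116). Its call was gained in H187 without lurbinectedin replicate 1 (-0.23, adjusted p = 0.0196) and after the GC correction (-0.20, adjusted p = 0.0219), and in H209 without DMSO replicate 3 (0.10, adjusted p = 0.0178).

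**Figure D3:**
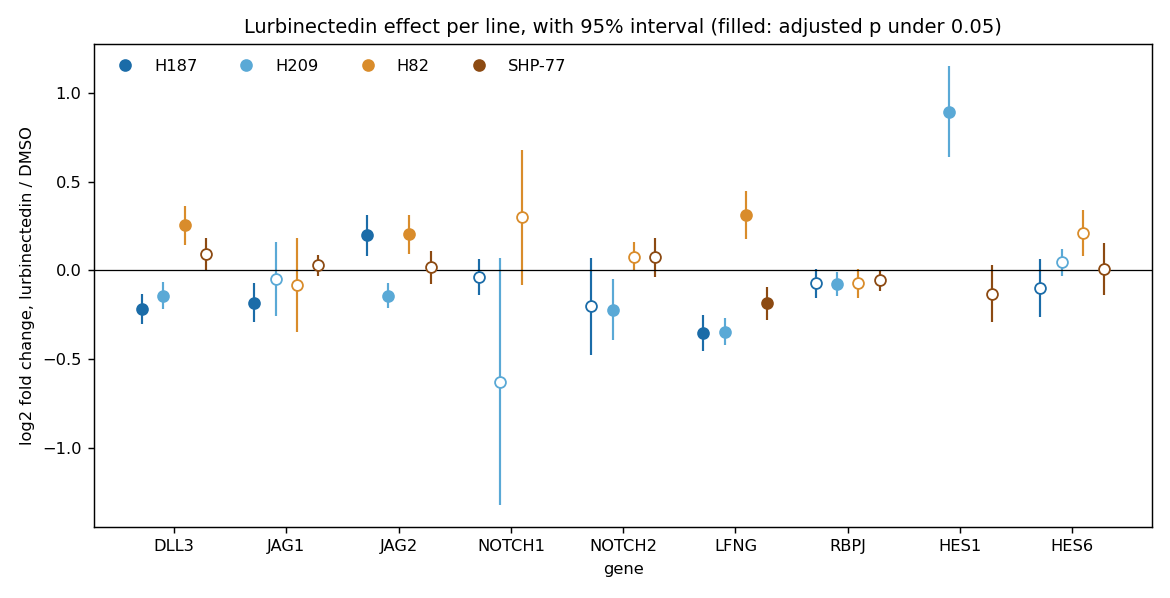
Log2 fold change of lurbinectedin over DMSO for each gene and line, with the 95% interval of the edgeR fit; filled points passed an adjusted p of 0.05. HES1 in H209 (0.89) lies above all other filled points, and LFNG is filled in all 4 lines, below 0 in H187, H209 and SHP-77 and above 0 in H82.

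Counted per line, 1 of 8 members rose (JAG2) and 3 fell (DLL3, JAG1 and LFNG) in H187, where 24.9% of all genes passed, 12.2% upward and 12.7% downward. In H209, 1 of 9 rose (HES1) and 5 fell (DLL3, JAG2, NOTCH2, LFNG and RBPJ), where 45.2% of all genes passed, 22.7% upward and 22.5% downward. In H82, 3 of 8 rose (DLL3, JAG2 and LFNG) and 0 fell, where 2.92% of all genes passed, 1.55% upward and 1.38% downward. In SHP-77, 0 of 8 rose and 1 fell (LFNG), where 5.19% of all genes passed, 1.98% upward and 3.21% downward. The median log2 fold change of the members was 0.21 in H82, 0.01 in SHP-77 and -0.14 in both H187 and H209, against 0.00 over all genes in each line.

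The 3 calls in H82 moved with base composition and with single libraries. The transcripts of DLL3, JAG2, LFNG, HES6 and NOTCH1 are 62.7% to 68.4% G and C, against 38% for RBPJ and 49.4% to 49.9% for JAG1, NOTCH2 and HES1. Over all genes of H82 the median log2 fold change was 0.10 where GC content was over 60% and -0.05 where it was under 40%; in H187 and H209 these medians were 0.08 and -0.03, and in SHP-77 0.04 and -0.02. After a correction for GC content within each library the H82 values were 0.13 for DLL3 (adjusted p = 0.158), 0.09 for JAG2 (adjusted p = 0.386) and 0.21 for LFNG (adjusted p = 0.0826). No member then passed in H82 with edgeR, 2 had an unadjusted p under 0.05, and the authors' deposited table, which has no such correction, lists DLL3, JAG2, LFNG and HES6 with an FDR of 0.00167, 0.0179, 0.000647 and 0.0396. The DLL3 call was also lost without DMSO replicate 1 (0.23) or 2 (0.21), or lurbinectedin replicate 2 (0.24) or 3 (0.23). The LFNG call was lost without DMSO replicate 1 (0.27) or lurbinectedin replicate 1, 2 or 3 (0.30 to 0.31). That of JAG2 was lost with DESeq2 (adjusted p = 0.0584), without DMSO replicate 1 or 2 (0.17 each) and without any of the lurbinectedin replicates (0.17 to 0.23). The same correction left DLL3 at -0.31 in H187 and -0.22 in H209, and LFNG at -0.43 and -0.41, each past the threshold.

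The design asks whether the response differs between ISL1-high and ISL1-low lines. Over the 24 libraries the mean response of H187 and H209 minus that of H82 and SHP-77 was -0.35 ± 0.06 for DLL3 (adjusted p = 5.24e-06), -0.41 ± 0.05 for LFNG (adjusted p = 9.43e-08) and -0.29 ± 0.08 for NOTCH2 (adjusted p = 0.00432). These were 3 of 7 members tested, all lower in the high lines, where 31.4% of all genes passed and 15.5% were lower. The 95% interval was -0.19 to 0.02 for JAG2, -0.23 to 0.06 for JAG1, -0.08 to 0.06 for RBPJ and -0.31 to 0.04 for HES6, none of which passed. This test takes the 4 lines as fixed. With 1 value per line and limma, no gene passed (2062 at an unadjusted p under 0.05), and DLL3, NOTCH2 and LFNG had adjusted p of 0.192, 0.187 and 0.295.

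Single pairs of lines placed these differences. The DLL3 response was lower in H187 than in H82 (-0.46 ± 0.08, where 14.3% of genes passed) and SHP-77 (-0.31 ± 0.08, 11.9%), and lower in H209 than in H82 (-0.39 ± 0.08, 28%) and SHP-77 (-0.24 ± 0.08, 25.7%). The last of these 4 was lost with DESeq2 (adjusted p = 0.0695) and without H209 DMSO replicate 3 (-0.17), SHP-77 DMSO replicate 2 (-0.22) or 3 (-0.19), or SHP-77 lurbinectedin replicate 3 (-0.18). H187 and H209 did not pass against each other (-0.07 ± 0.08, 95% interval -0.23 to 0.09), nor did H82 and SHP-77 (0.16 ± 0.08, 95% interval 0.00 to 0.31). LFNG responded differently in H82 than in each other line: the response was lower in H187 by 0.66 ± 0.08, in H209 by 0.65 ± 0.08 and in SHP-77 by 0.49 ± 0.08 (adjusted p = 0.00238, a pair in which 0.342% of genes passed). Against SHP-77, LFNG did not pass in H187 (-0.17 ± 0.07, adjusted p = 0.10) or H209 (-0.16 ± 0.07, adjusted p = 0.0804). Both passed after the GC correction (adjusted p = 0.00609 and 0.00515) and without SHP-77 DMSO replicate 1 (adjusted p = 0.0324 and 0.0199). The H209 value also passed without H209 DMSO replicate 2 (adjusted p = 0.0265). Between the ISL1-high lines, 1 of 7 members passed: the response of JAG2 was 0.34 ± 0.07 higher in H187 than in H209 (adjusted p = 0.000666, where 11.1% of genes passed). For NOTCH2 the response was lower in H209 than in H82 (-0.29 ± 0.09) and SHP-77 (-0.30 ± 0.10). H187 did not pass for NOTCH2 against H82 (-0.27 ± 0.12, adjusted p = 0.128) or SHP-77 (-0.28 ± 0.12, adjusted p = 0.15). These pairs share libraries, so their values are not independent of each other.

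Under lurbinectedin the class table lists all 9 genes. By the mean of the ISL1-high lines minus that of the low lines, 4 were higher (JAG2, NOTCH1, LFNG and RBPJ) and 4 lower (DLL3, JAG1, NOTCH2 and HES6). In this test 88.9% of genes passed, 47% higher and 41.9% lower. Only for JAG2, RBPJ and NOTCH2 did both high lines lie on the same side of both low lines. LFNG averaged 57.6 CPM in H209 against 63.4 in SHP-77, and HES6 344.7 CPM in H209 against 88.0 in H82. DLL3 averaged 168.5 CPM in H187 against 129.9 in H82, and JAG1 27.8 against 4.38. HES1 did not pass (-0.37 ± 0.21). The NOTCH1 difference of 3.13 ± 0.22 came from H187, since H209 held 0.425 to 0.637 CPM and H82 1.75 to 2.45 CPM. The authors' deposited table, whose log2 fold changes are not means over lines, lists NOTCH2 (-4.16), NOTCH1 (4.68), RBPJ (0.82) and JAG2 (0.88) with an FDR under the threshold, and DLL3 (-0.50, FDR 0.144), JAG1 (-1.71, FDR 0.116), LFNG (0.74, FDR 0.0884) and HES6 (-0.30, FDR 0.731) without. With limma on 1 value per line no gene passed under DMSO or under lurbinectedin (819 and 1108 at an unadjusted p under 0.05).

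The rest of the pathway was followed through 58 further Notch genes, of which 56 are listed in at least 1 table. In H209, the line with the most calls, 12 of 49 rose (24.5%) and 17 fell (34.7%), against 22.7% and 22.5% of all genes. Besides HES1, 2 of 4 further target genes rose there. HEY2, a repressor of the HEY family, went from 2.01 to 2.76 CPM under DMSO to 4.55 to 5.13 CPM (1.04 ± 0.14, adjusted p = 7.1e-08). NRARP, a target that destabilises the receptor's intracellular domain, went from 10.8 to 11.2 CPM to 16.8 to 18.9 CPM (0.72 ± 0.07, adjusted p = 1.81e-11). For both genes the groups did not overlap. HEY1 (26.7 and 27.6 CPM) and HEYL (2.36 and 2.72 CPM), the other targets listed for H209, did not pass. The response of HEY2 was higher in H209 than in SHP-77 by 1.07 ± 0.16 (adjusted p = 1.71e-06) and than in H82 by 1.00 ± 0.16 (adjusted p = 1.13e-05), and that of NRARP by 0.68 ± 0.10 (adjusted p = 1.04e-06) and 0.44 ± 0.10 (adjusted p = 0.000732). HES1, HEY2 and NRARP under lurbinectedin remained lower in H209 than in SHP-77, at 5.53, 4.81 and 18.0 CPM against 9.95, 11.8 and 32.7 CPM.

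Of 4 further ligands in H209, 2 rose and 1 fell. DLL4 (0.34 ± 0.05) and DLK2 (0.64 ± 0.11) rose, both named after their values were seen. DNER, a neuronal Notch ligand, went from 269 to 288 CPM under DMSO to 171 to 186 CPM (-0.61 ± 0.03, adjusted p = 1.23e-19). Of 6 coactivators 2 rose (CREBBP and SNW1) and 2 fell (MAML1 and MAML3), of which all but MAML3 are named after their values were seen. MAML3, a Mastermind coactivator, fell by 0.83 on the log2 scale (adjusted p = 1.47e-13). NCSTN, a gamma-secretase subunit, fell by 0.25 (adjusted p = 9.84e-08). Of 9 genes for receptor cleavage 5 fell and 0 rose (ADAM10, PSEN2, NCSTN, APH1A and APH1B, of which all but NCSTN are named after their values were seen), with a median of -0.09, against 22.5% lower and 22.7% higher over all genes. TLE3, a Groucho corepressor that HES proteins recruit, rose by 0.25 ± 0.03 (adjusted p = 7.3e-09). DNER and MAML3 span 356.9 and 437.7 kb, and genes spanning over 300 kb had a median of -0.28 in H209 and -0.29 in H187; the part of gene span in their changes was not tested.

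In H187, 9 of 55 further Notch genes rose and 11 fell, against 12.2% and 12.7% of all genes. TLE2, a corepressor (0.30 ± 0.05), POGLUT1, a glucosyltransferase of Notch repeats (0.31 ± 0.07), and DLK2, a Delta-like protein that lacks the receptor-binding domain of the activating ligands (0.63 ± 0.15), rose with the smallest adjusted p. DNER (-0.50 ± 0.05), the corepressor TLE4 (-0.44 ± 0.07) and MAML3 (-0.37 ± 0.07) led the falls. Of 6 targets listed for H187, 2 rose, HES4 (0.75 ± 0.21, adjusted p = 0.0128) and HEY2 (0.73 ± 0.26, adjusted p = 0.0412), both named after their values were seen and both low, at 1.47 and 0.857 CPM under DMSO. NRARP stood at 2.30 CPM in H187 under DMSO and 2.51 CPM under lurbinectedin and did not pass.

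The ISL1-low lines gave few calls. In H82, NRARP (0.28 ± 0.06, adjusted p = 0.0129) and the corepressor TLE1 (0.19 ± 0.04, adjusted p = 0.0266) rose and MAML2, a Mastermind coactivator, fell by 0.22 (adjusted p = 0.0428), 3 of 54 genes, where 2.92% of all genes passed. After the GC correction none of the 54 passed in H82 with edgeR, and 9 had an unadjusted p under 0.05. In SHP-77, the ligand-endocytosis ligase NEURL1B (0.14 ± 0.03, adjusted p = 0.011) and TLE3 (0.20 ± 0.05, adjusted p = 0.0152) rose and DNER fell by 0.13 (adjusted p = 0.0154), 3 of 51 genes, where 5.19% of all genes passed. Over the further Notch genes the median was 0.07 in H82, 0.04 in H187, 0.02 in SHP-77 and -0.03 in H209.

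**Figure D4:**
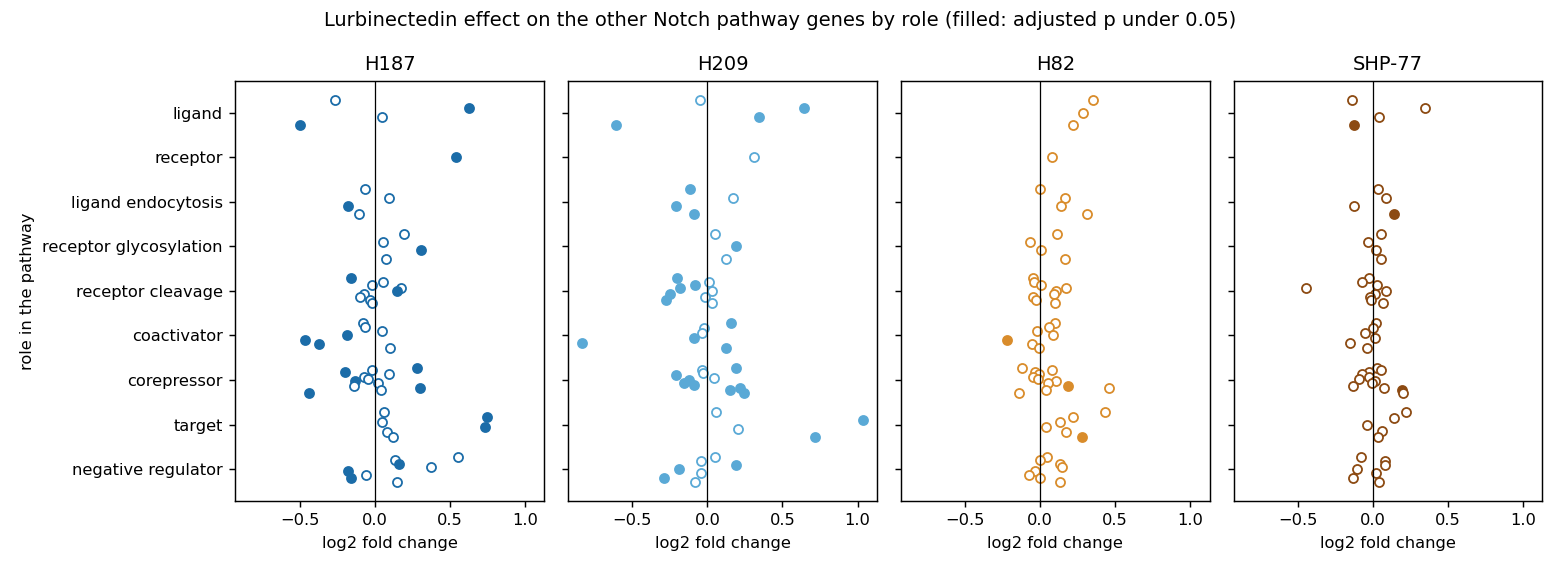
Log2 fold change of lurbinectedin over DMSO for the further Notch pathway genes, 1 panel per line and 1 row per role, with each point a gene and filled points past an adjusted p of 0.05. In H209 the filled targets are HEY2 (1.04) and NRARP (0.72) and 5 filled genes of receptor cleavage lie below 0, while H82 and SHP-77 have 3 filled points each.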

How the data were processed

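The authors deposited counts made on hg38 with featureCounts, STAR 2.7.10a, edgeR 4.2.0 and Subread 2.0.3 among their tools, per the submitters' processing notes. Annotation, strand setting and low-count filter are not given in the sources used here. Per the labels' protocols, libraries were Illumina Stranded Total RNA with Ribo-Zero Plus. Per the file headers, each of the 5 deposited tables holds raw counts, the authors' log2 values (expression and fold change) and their p-value or FDR.

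Raw counts were analysed with edgeR 4.0.16 in R 4.3.3: filterByExpr (minimum count 10, minimum total 15), TMM scaling, glmQLFTest and Benjamini-Hochberg adjustment over all genes of a fit, with a threshold of 0.05. Each line was fitted alone on 6 libraries, line levels on 12 and response differences on 24, with 1 mean per line and treatment. CPM values use 1 TMM scale over the 11408 genes in all 4 line tables. Values are log2 ± SE (n = 3 per group), from libraries of 24226553 to 36415190 counts. Alternatives included DESeq2 1.42.0, limma 3.58.1 on 1 value per line, a replicate block, each library left out and, added after the data were seen, a correction for transcript GC content (lowess, span 0.3) and fits of 2 lines alone.

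The 10 members and all gene lists were chosen with earlier results of these data known. Besides the members and ISL1, the rule names up to 3 further Notch genes per line and direction with the smallest adjusted p and the 5 genes whose log2 CPM followed DLL3 most closely; some results under the rule are not reported here, and other names were chosen after their values were seen. The fits were tested on simulated data.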

Additional observations from a re-analysis of the deposited data

Results flagged for a closer look

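The response to lurbinectedin differed between the ISL1 classes for 3 members, by the test of the difference itself. The high lines minus the low lines gave -0.35 ± 0.06 for DLL3, -0.41 ± 0.05 for LFNG and -0.29 ± 0.08 for NOTCH2 (SE, edgeR adjusted p = 5.24e-06, 9.43e-08 and 0.00432), in a test that 31.4% of all genes passed. It takes the 2 lines of each class as fixed: with 1 value per line and limma, none of the 3 passed (adjusted p = 0.192, 0.295 and 0.187).

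Pairs of lines were flagged by the same test. For DLL3 the response differed between H187 and H82 by -0.46, between H187 and SHP-77 by -0.31, between H209 and H82 by -0.39 and between H209 and SHP-77 by -0.24. For LFNG it differed between H187 and H82 by -0.66, between H209 and H82 by -0.65 and between H82 and SHP-77 by 0.49. For JAG2 the differences were 0.34 between H187 and H209 and -0.34 between H209 and H82. For NOTCH2 they were -0.29 between H209 and H82 and -0.30 between H209 and SHP-77, and for JAG1 -0.21 between H187 and SHP-77 (edgeR adjusted p = 0.0298). The NOTCH2 response of H187 did not pass against that of H82 or SHP-77. Neither ISL1-high line passed against SHP-77 for the LFNG response. HES1, fitted on H209 and SHP-77 alone, differed by 1.03 ± 0.15. In each sentence the second line's response is subtracted from the first. The NOTCH2 call between H209 and H82 was lost without H209 DMSO replicate 3 (-0.25) or lurbinectedin replicate 1 (-0.22). That between H209 and SHP-77 was lost without H209 DMSO replicate 3 (-0.25) or lurbinectedin replicate 1 (-0.23) or 2 (-0.27), and without SHP-77 DMSO replicate 3 (-0.27) or lurbinectedin replicate 1 (-0.26). The JAG1 call was lost with a replicate block (adjusted p = 0.0569) and without H187 DMSO replicate 3 or lurbinectedin replicate 2 or 3, or SHP-77 DMSO replicate 2 or 3 or lurbinectedin replicate 1 or 2, with values from -0.22 to -0.18.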

How the results depend on the processing

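No member call changed direction under any alternative; 76 values changed sign where neither fit passed. H82 was the least stable line. Its 395 genes past the threshold became 643 with all 24 samples in 1 fit, 755 with a replicate block, 182 after the GC correction and 652 in the authors' deposited table, and 93 to 1397 when 1 library was left out (93 without lurbinectedin replicate 1, 1397 without DMSO replicate 3). Its 3 members past the threshold became 0 and its 3 further Notch genes 0 after the GC correction; leaving out 1 library gave 0 to 4 and 0 to 11. SHP-77 had 737 genes, 451 with all 24 samples and 417 to 706 when 1 library was left out, with 0 to 1 members and 0 to 3 further Notch genes.

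Limma on 1 value per line gave 0 genes and 0 members for the class difference under DMSO (819 genes and 1 member at an unadjusted p under 0.05), 0 and 0 under lurbinectedin (1108 and 1) and 0 and 0 for the response difference (2062 and 2), against 10159, 12858 and 3580 genes with edgeR; it has 4 values per gene. The authors' deposited class table gave 5478 genes and 4 members. Members that passed in the H187 minus SHP-77 response went from 2 to 1 with the replicate block and to 1 to 3 without 1 library. In H209 minus SHP-77 they went from 2 to 1 with DESeq2, to 4 after the GC correction, to 4 with 2 lines alone and to 0 to 3 without 1 library. The 39 genes of H82 minus SHP-77 became 59 with DESeq2, 18 with the replicate block, 25 with 2 lines alone and 17 to 90 without 1 library. The causes were not tested beyond what each alternative changes by construction.

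Same-numbered libraries within a line had correlations of -0.157 to 0.0754, and 0 of 12 exceeded 0.1. These values gave no sign that replicate numbers pair the libraries. With so few libraries per group, they cannot decide whether some libraries or genes were paired. With the block, HES6 in H82 passed (0.21, adjusted p = 0.00107), while RBPJ in H209 (-0.08, adjusted p = 0.0719) and the JAG1 response difference of H187 minus SHP-77 (-0.21, adjusted p = 0.0569) no longer did; it changed no other member call. RLE in place of TMM scaling left 67 of 69 member levels within 1 SD. Low counts, at library totals like those of the other lines, limit the precision of NOTCH1 in H209 and SHP-77 and of HES1 in H187 and H82.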
